A study of Mus musculus with 20 samples.

Results

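The cytochrome P450 genes of families 1 to 3 were followed in mouse liver under a fibrosis-inducing diet and in mice labelled TSP-1 null. Members were all protein coding genes of the expression table whose symbol reads Cyp, then 1, 2 or 3, then a letter and a number, and 57 of the 38924 genes in the table met this rule. Symbols with a further suffix or a second letter were left out, namely Cyp2ab1, Cyp2d37-ps, Cyp2j7-ps, Cyp3a41a and Cyp3a41b. The 20 male mice, of the background C57/BL6 by the labels and C57BL/6J in the methods of the study, received control diet or CDAHFD, a high fat and amino acid defined diet deficient in choline, for 12 weeks. There were 5 mice in each of 4 groups: WT on control diet (NDWT), TSP-1 null on control diet (NDKO), WT on CDAHFD (HFWT) and TSP-1 null on CDAHFD (HFKO). TSP-1 is thrombospondin 1, a secreted matrix protein encoded by Thbs1 and an activator of TGF-β, and the TSP-1 null mice lack it in every cell by design. The WT and the TSP-1 null mice were bought as separate lines at 5 weeks of age, and whether they were littermates is not stated, so line and genotype cannot be told apart. The paper takes the tissue from the right lateral lobe, whereas the description of the series names the right medial lobe.

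P450 enzymes are haem proteins of the endoplasmic reticulum that insert 1 oxygen atom into a lipophilic substrate, using electrons passed on by P450 oxidoreductase. Families 1 to 3 carry out most oxidation of drugs and environmental chemicals in the liver, and many members also hydroxylate steroids, bile acids and arachidonic acid. Their transcription is set largely by ligand-activated factors, among them the aryl hydrocarbon receptor (AhR) for Cyp1a genes, CAR for Cyp2b and Cyp2c genes and PXR for Cyp3a genes. In mice, pituitary growth hormone makes several members male-biased or female-biased, and many are transcribed mainly in the hepatocytes around the central vein.

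Values are FPKM, fragments per kilobase of gene scaled to the assigned fragments of the library, which can be compared between genes since they are per length. Libraries held 15641545 to 23276322 assigned fragments, and on a 1 kb gene 3 fragments, taken as the floor of a library, corresponded to 0.129 to 0.192 FPKM. In HFWT library 5, 5.55% of fragments lay on the repeat-related genes Gm26924 and Gm23935, against 0.176 to 1.98% in the other libraries. Thbs1, the targeted gene, ran against the genotype labels on control diet, at 0.197 ± 0.103 FPKM (SD, n = 5) in NDWT and 1.30 ± 0.390 (n = 5) in NDKO (log2FC 2.28, SE 0.24, FDR 1.02e-05), while on CDAHFD it was 4.62 ± 1.22 in HFWT and 3.44 ± 0.547 in HFKO (FDR 0.408). Whether its fragments lie outside the deleted part is not known from the table, so the 10 libraries concerned are called those labelled TSP-1 null. Hepatocyte markers were abundant in every library, with a summed level of 27469 to 48845 FPKM, Alb included.

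The sequences just before the transcription start are shown for 4 members named in the results below. Cyp3a11 is the member whose FPKM rose most in absolute terms on CDAHFD, and Cyp1a1 was higher in NDKO than in NDWT. Cyp2a4 and Cyp2a5 are a near-identical pair at very different levels. Whether these sequences bear on the levels was not tested. They come from RefSeq on GRCm38.p6, the build on which the coordinates of the deposited genes also lie, and run 5′ to 3′ on the strand of the gene. Bases inside the deposited gene were left out, so 3 of the stretches end before the RefSeq start: Cyp3a11 by 110 bases, Cyp2a5 by 34 and Cyp2a4 by 2. Positions of motifs are counted from the RefSeq start and not from the end of the printed stretch.

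Cyp3a11, chr5:145879965-145880104, minus strand, with the nuclear receptor half-site AGGTCA at 162 to 157 bases before the start and TGAACT at 142 to 137 bases in capitals:
Cyp3a11: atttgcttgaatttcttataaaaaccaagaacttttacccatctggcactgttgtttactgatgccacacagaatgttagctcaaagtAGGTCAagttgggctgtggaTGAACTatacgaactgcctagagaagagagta
Cyp1a1, chr9:57697363-57697612, plus strand, with the AhR core GCGTG at 54 to 50 bases before the start in capitals:
Cyp1a1: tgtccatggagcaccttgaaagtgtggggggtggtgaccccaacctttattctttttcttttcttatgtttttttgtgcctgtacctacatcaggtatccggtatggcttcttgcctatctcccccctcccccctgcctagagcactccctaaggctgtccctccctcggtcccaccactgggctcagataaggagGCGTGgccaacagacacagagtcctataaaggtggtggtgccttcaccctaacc
Cyp2a4, chr7:26306942-26307189, and Cyp2a5, chr7:26835089-26835304, both plus strand, with the 4 bases that differ between them in capitals:
Cyp2a4: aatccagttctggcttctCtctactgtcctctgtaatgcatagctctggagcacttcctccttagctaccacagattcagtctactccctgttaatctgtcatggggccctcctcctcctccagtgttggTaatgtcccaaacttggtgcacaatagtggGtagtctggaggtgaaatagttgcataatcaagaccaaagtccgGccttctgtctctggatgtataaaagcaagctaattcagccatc
Cyp2a5: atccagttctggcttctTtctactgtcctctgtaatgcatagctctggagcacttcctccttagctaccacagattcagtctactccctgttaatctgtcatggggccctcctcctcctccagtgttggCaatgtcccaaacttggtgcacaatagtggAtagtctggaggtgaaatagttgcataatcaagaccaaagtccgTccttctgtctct

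Both upstream stretches of the Cyp2a pair were the same at 245 of 249 aligned bases (98.4%), and other neighbours were as close, with 248 of 250 bases (99.2%) for Cyp2b9 and Cyp2b13 and 217 of 220 (98.6%) for Cyp2c40 and Cyp2c69. Cyp2d9 and Cyp2d10 shared 209 of 246 bases (85.0%). Of 57 members, 50 had a RefSeq start, and each motif was searched on both strands in the 250 bases before it. AGGTCA stood in 15 of the 50 members (30.0%) and in 14.0% of all 32851 such windows, and TGAACT in 6 members (12.0%) and 11.8% of windows. GCGTG stood in 8 members (16.0%), Cyp1a1 and Cyp1b1 among them, and in 28.2% of all windows. TTCNNNGAA, the spaced palindrome bound by STAT5, stood in 2 members (4.00%) and 7.02% of all windows. A match is a description of the letters and not a site of binding.

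Of the 57 members, 39 passed the filter on low values (FPKM above 0.5 in at least 5 libraries) and were tested with limma among 14524 genes. A member was called where its two-sided Benjamini-Hochberg FDR over all tested genes was under 0.05 and its absolute log2FC above 0.58. The 18 members below the filter reached at most 0.843 FPKM. Cyp2c66, Cyp2j11 and Cyp2j12 were at 0 in every library. A further 7 (Cyp2b10, Cyp2b19, Cyp2b23, Cyp2c65, Cyp2j13, Cyp2w1 and Cyp3a16) had no more than 3 fragments in any library. The remaining 8 had more than 3 fragments in at least 1 library. Because a filter on level keeps a member that is high in 1 group only, the counts below describe the tested members and not all 57. Cyp1a1, Cyp1b1, Cyp2a4, Cyp2b9 and Cyp2c55, among others, passed it through CDAHFD libraries alone or, like Cyp2c40 and Cyp2c69, control diet libraries alone. The direction of such members in the diet counts follows in part from the filter.

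A few enzymes made up most of the P450 signal. Summed over the 57 members, FPKM on control diet was 9143 ± 678 in NDWT and 9289 ± 366 in NDKO (SD, n = 5 each), and on CDAHFD 7390 ± 429 in HFWT and 6565 ± 926 in HFKO. The sum on CDAHFD was thus 0.808 times that on control diet in WT mice and 0.707 times in the mice labelled TSP-1 null. Cyp2e1 alone held 50.1% of the summed FPKM in NDWT and 41.9% in HFKO. The CYP3A share of the sum was 5.54% in NDWT and 15.2% in HFWT, and 6.62% in NDKO and 16.7% in HFKO. The CYP2D share was 23.0% in both control diet groups, 15.5% in HFWT and 17.2% in HFKO. No test was run on sums or shares.

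**Figure D1:**
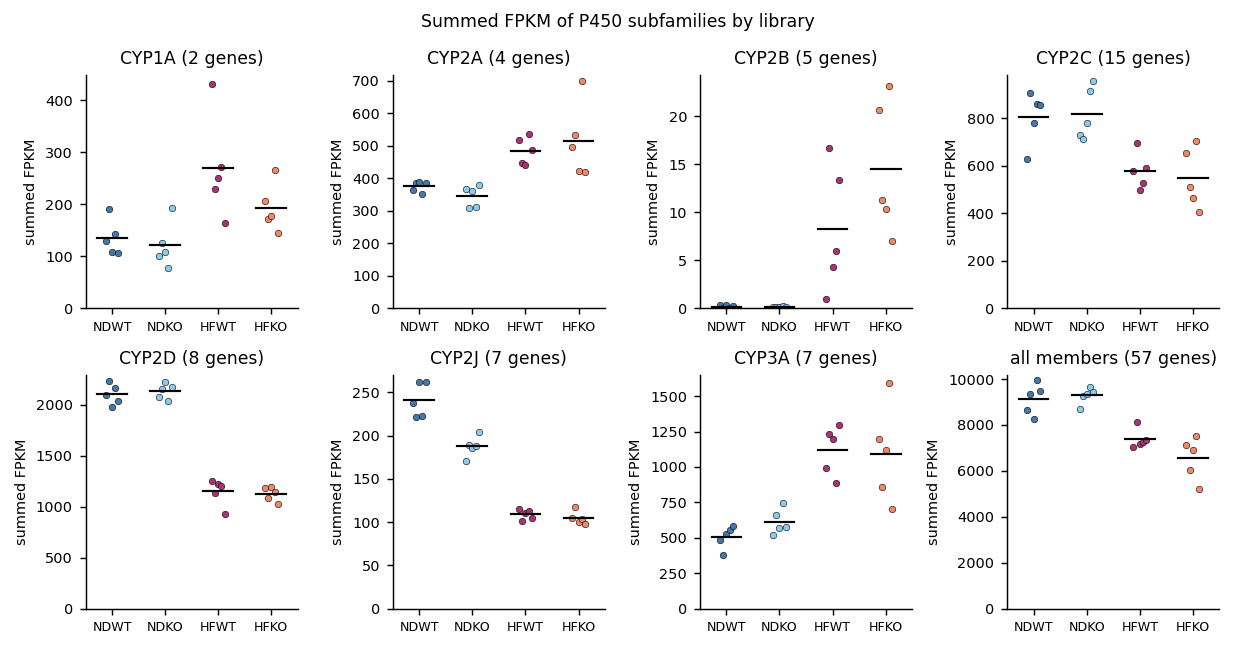
Summed FPKM of 7 subfamilies and of all members (vertical axes, linear, from 0) in each library (points) by group, with the group mean as a bar. CYP3A sums were 2.22 times as high on CDAHFD in WT mice and 1.78 times in those labelled TSP-1 null, whereas CYP2D sums were 0.547 and 0.528 times the control diet level.

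On CDAHFD the members moved in both directions. In WT mice 24 of 39 tested members were called, 13 higher and 11 lower, that is 61.5% of the tested members against 48.8% of all tested genes. In mice labelled TSP-1 null 28 were called, 12 higher and 16 lower (71.8%, all genes 45.9%). Without the fold threshold, 30 members in WT (all genes 73.1%) and 31 in TSP-1 null (71.6%) had an FDR under 0.05, and 31 (75.0%) and 32 (73.6%) an unadjusted p under 0.05. Most genes called were higher on CDAHFD, 44.1% of all genes in WT and 41.9% in TSP-1 null, with 4.62% and 4.00% lower, whereas 28.2% and 41.0% of the tested members were lower. The median log2FC of the members was −0.23 for WT and −0.15 for TSP-1 null, while that of all genes was 0.53 and 0.50. Groups did not overlap for 23 members in WT (59.0%, all genes 56.2%) and 22 in TSP-1 null (56.4%, all genes 57.8%).

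The shift of the median over all genes depends on how libraries are scaled, at −0.01 in both diet comparisons under median of ratios scaling and −0.09 in both under quantile normalization. For part of the called members the log2FC is therefore also given relative to the median of all genes as deposited. All other log2FC values are as deposited only, unless a scaling is named. The split of called members was 9 higher and 22 lower in WT and 7 higher and 21 lower in TSP-1 null under median of ratios scaling, and 9 higher and 13 lower, and 8 higher and 16 lower, under quantile normalization. Of the 24 calls in WT, 18 held under both scalings (7 higher, 11 lower), and of the 28 in TSP-1 null 21 held (7 higher, 14 lower). The calls lost under at least 1 scaling in both genotypes were those of Cyp1a1, Cyp1a2, Cyp2c39, Cyp2c70 and Cyp2r1, all higher as deposited. Cyp2d12 was lost in addition in WT, and Cyp2d10 and Cyp2e1 in TSP-1 null. Calls were gained as well, all lower: under median of ratios scaling 11 in WT (Cyp2a12, Cyp2c44, Cyp2c50, Cyp2c67, Cyp2d10, Cyp2d11, Cyp2d22, Cyp2d26, Cyp2e1, Cyp2j6 and Cyp3a25) and 5 in TSP-1 null (Cyp2c44, Cyp2c67, Cyp2d22, Cyp2j6 and Cyp3a59), and under quantile normalization 2 in each (Cyp2c67 and Cyp2d11, and Cyp2d12 and Cyp3a59).

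The same members were called in the same direction in both genotypes in 23 cases, 12 higher and 11 lower, and none was called in opposite directions. Higher in both were Cyp1a1, Cyp1a2, Cyp1b1, Cyp2a4, Cyp2a5, Cyp2a22, Cyp2b9, Cyp2c39, Cyp2c55, Cyp2c70, Cyp2r1 and Cyp3a11. Lower in both were Cyp2c29, Cyp2c37, Cyp2c40, Cyp2c54, Cyp2c69, Cyp2d9, Cyp2d40, Cyp2f2, Cyp2j5, Cyp2u1 and Cyp3a13. Cyp2d12 was called in WT alone, and Cyp2c50, Cyp2d10, Cyp2d11, Cyp2e1 and Cyp3a25 in TSP-1 null alone. These sets hold for the values as deposited: under median of ratios scaling the latter 5 were called lower in WT too (log2FC −1.14 to −0.86). For none of these 6 did the test of the difference between genotypes, the interaction of diet and genotype, pass the threshold (FDR 0.0898 to 0.926).

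**Figure D2:**
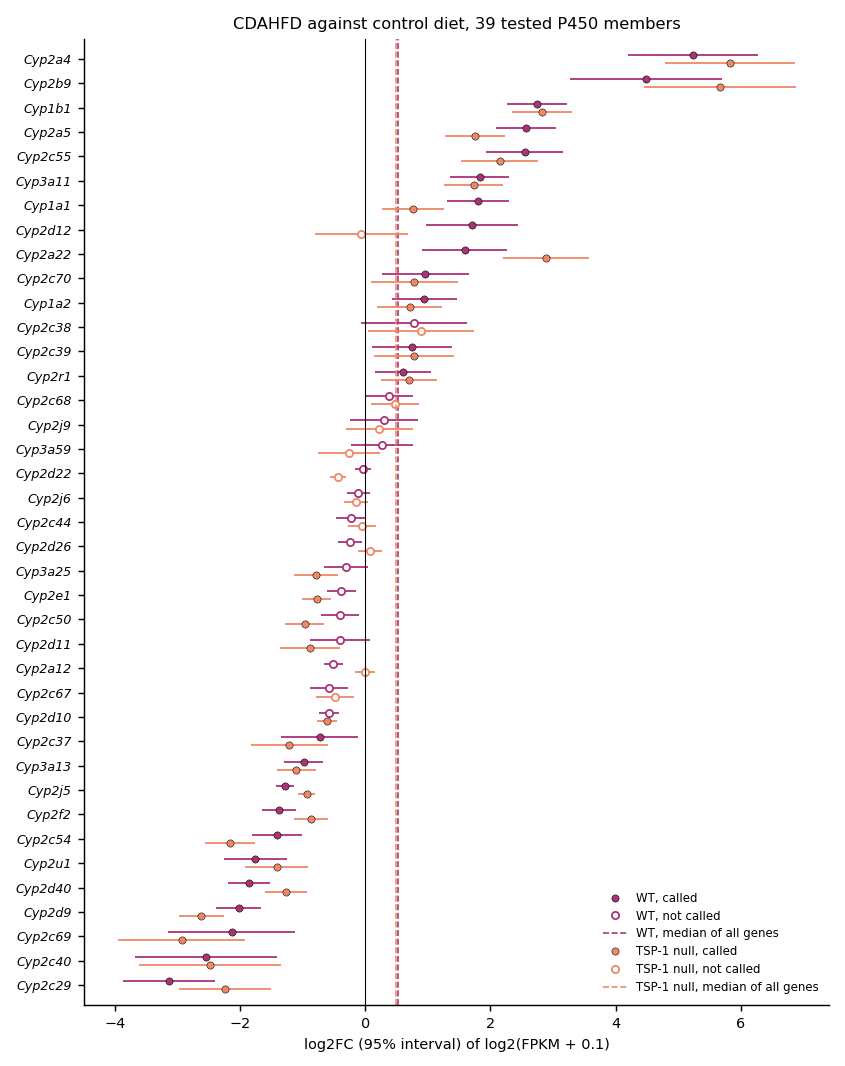
Fitted log2FC with its 95% interval (horizontal axis) of CDAHFD against control diet for the 39 tested members, in WT (purple) and TSP-1 null (orange), with filled points for called members and dashed lines at the median of all genes. Cyp2a4 and Cyp2b9 stand at the top with log2FC above 4 in both genotypes, and most called lower members lie at the bottom in both.

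Of the CYP2E and CYP2F subfamilies, which hold 1 gene each, both were abundant. Cyp2e1 (chr7:140763739-140774975, plus strand), which oxidises ethanol and acetaminophen, was the most abundant member in every group. Its FPKM, in the order of libraries 1 to 5 here and below, was 4296, 4605, 3798, 5280 and 4922 in NDWT and 2978, 4122, 3291, 3515 and 3643 in HFWT. In the libraries labelled TSP-1 null it was 4290, 4785, 4705, 5032 and 4594 in NDKO and 3031, 2486, 3215, 2773 and 2257 in HFKO. The diet groups overlapped in WT, where HFWT library 2 lay above NDWT library 3, and did not overlap in TSP-1 null. Cyp2e1 fell 1.70-fold in TSP-1 null (log2FC −0.78, SE 0.11, relative to all genes −1.27, FDR 4.29e-06), a call lost under quantile normalization, and its value in WT was 1.30 times lower and not called (log2FC −0.38, FDR 0.00446).

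Cyp2f2 (chr7:27119909-27133660, plus strand), the naphthalene-oxidising enzyme also known from airway club cells, was 421, 427, 400, 364 and 335 FPKM in NDWT and 151, 136, 144, 200 and 122.9 in HFWT. It was 430, 330, 431, 350 and 364 in NDKO and 237, 249, 176, 223 and 168 in HFKO. Every CDAHFD library was below every control diet library of its genotype. Cyp2f2 fell 2.58-fold in WT (log2FC −1.38, SE 0.13, relative −1.91, FDR 1.69e-08) and 1.81-fold in TSP-1 null (log2FC −0.86, relative −1.36, FDR 8.42e-06). On CDAHFD it was higher by 0.48 in log2FC in TSP-1 null than in WT and did not pass the test (FDR 0.0761).

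In the CYP2D cluster on chromosome 15, 7 members were tested, of which 3 were called in WT (1 higher, 2 lower) and 4, all lower, in the mice labelled TSP-1 null. Cyp2d9 (chr15:82452377-82456827, plus strand), the male-biased testosterone 16α-hydroxylase, was the second most abundant member on control diet. It stood at 836, 958, 832, 973 and 871 FPKM in NDWT and 298, 178, 260, 273 and 135 in HFWT. In NDKO it was 1008, 1013, 1017, 992 and 1037, and in HFKO 136, 231, 155, 146 and 172. All CDAHFD libraries lay far below all control diet libraries. Cyp2d9 fell 3.91-fold in WT (log2FC −2.02, SE 0.17, relative −2.55, FDR 3.59e-09) and 6.03-fold in TSP-1 null (log2FC −2.62, relative −3.11, FDR 1.42e-10).

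Cyp2d10 (chr15:82402846-82407194, minus strand) was 386, 406, 359, 413 and 392 FPKM in NDWT and 297, 251, 281, 267 and 219 in HFWT. It was 392, 390, 423, 401 and 405 in NDKO and 279, 259, 264, 286 and 232 in HFKO. The diet groups did not overlap in either genotype. Its log2FC was −0.58 in WT, just inside the fold threshold and so not called (FDR 1.06e-06), and −0.61 in TSP-1 null, where it was called (FDR 5.70e-07, 1.52-fold). Both stand at the threshold: without HFKO library 5 the TSP-1 null value was −0.57 and not called, and the WT value was called without any 1 of NDWT libraries 1 and 3 and HFWT libraries 1, 3 and 4 (−0.62 to −0.58).

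Cyp2d26 (chr15:82790107-82794245, minus strand), the most abundant CYP2D gene on CDAHFD, was 699, 691, 614, 635 and 623 FPKM in NDWT and 538, 605, 577, 552 and 490 in HFWT. In NDKO it was 517, 601, 633, 507 and 556, and in HFKO 663, 505, 676, 612 and 522. NDWT lay above HFWT in all libraries, NDKO and HFKO overlapped, and neither comparison was called (log2FC −0.24, FDR 0.0207, and 0.08, FDR 0.455). Cyp2d40 (chr15:82759835-82764183, minus strand) was 92.7, 83.5, 84.5, 58.7 and 68.1 FPKM in NDWT and 28.2, 19.5, 20.99, 22.3 and 15.9 in HFWT. It was 43.1, 46.5, 46.9, 43.4 and 63.7 in NDKO and 26.5, 18.8, 18.6, 16.2 and 21.1 in HFKO. Cyp2d40 fell 3.63-fold in WT (log2FC −1.86, SE 0.16, relative −2.39, FDR 3.82e-09) and 2.41-fold in TSP-1 null (log2FC −1.27, relative −1.77, FDR 7.38e-07), with no overlap in either.

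The other CYP2D members were weaker or less abundant. Cyp2d12 ranged from 0.311 to 0.825 FPKM in NDWT and from 0.896 to 4.66 in HFWT, a 4.23-fold rise in the mean (log2FC 1.71, FDR 0.000244), but from 0.388 to 0.928 in NDKO and 0.344 to 0.871 in HFKO (log2FC −0.06, FDR 0.884). The interaction for Cyp2d12 was −1.77 (95% interval −2.81 to −0.72) and did not pass the test over all genes (FDR 0.0898). Cyp2d11 was called lower in TSP-1 null alone (log2FC −0.89, FDR 0.00188), with means of 0.835 FPKM in NDKO and 0.419 in HFKO. The call was lost with a pseudocount of 1. Of the 31-base stretches of Cyp2d11, 58.5% also occur in transcripts of another gene, mainly Cyp2d10. Its FPKM was a median of 0.206% of that of Cyp2d10 in NDKO and 0.143% in HFKO, so its level is uncertain.

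**Figure D3:**
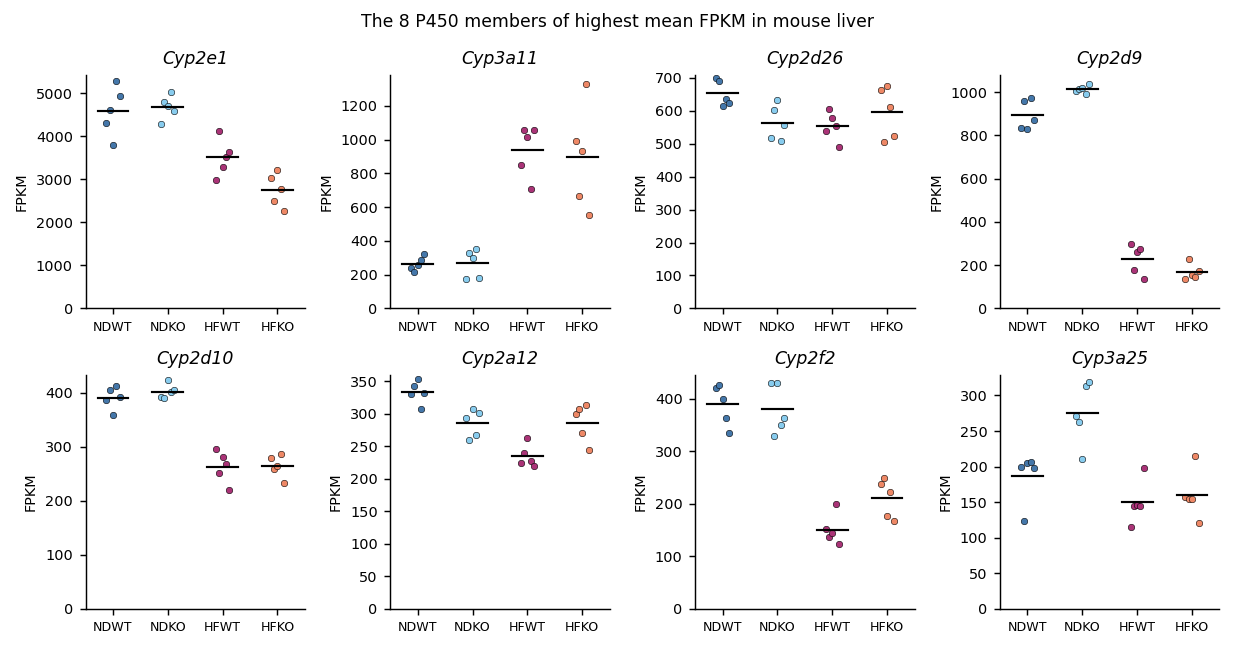
FPKM (vertical axes, linear, from 0) of the 8 members with the highest mean over 20 libraries, with 1 point per library and the group mean as a bar. Cyp2d9 on CDAHFD sits between 135 and 298 against 832 to 1037 on control diet, while Cyp3a11 sits between 551 and 1329 against 176 to 350.

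In the CYP3A cluster on chromosome 5 Cyp3a11 rose, and Cyp3a13, and in TSP-1 null also Cyp3a25, were called lower. Cyp3a11 (chr5:145854426-145879964, minus strand), the main drug-oxidising 3A enzyme of mouse liver and the classical PXR target, was 242, 216, 255, 288 and 321 FPKM in NDWT and 852, 1060, 1018, 710 and 1056 in HFWT. It was 176, 331, 296, 350 and 183 in NDKO and 995, 664, 935, 1329 and 551 in HFKO. Every CDAHFD library was above every control diet library. Cyp3a11, whose upstream stretch is printed above, rose 3.56-fold in WT (log2FC 1.83, SE 0.23, relative 1.29, FDR 5.85e-07) and 3.35-fold in TSP-1 null (log2FC 1.74, relative 1.24, FDR 1.25e-06).

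Cyp3a25 (chr5:145977194-146009618, minus strand) was 200, 124, 205, 206 and 198 FPKM in NDWT and 115, 145, 146, 145 and 198 in HFWT. It was 271, 263, 210, 313 and 319 in NDKO and 158, 154, 155, 214 and 121 in HFKO. The diet groups overlapped in both genotypes, in TSP-1 null through NDKO library 3 and HFKO library 4 alone. Cyp3a25 fell 1.71-fold in TSP-1 null (log2FC −0.79, SE 0.17, relative −1.28, FDR 0.000346), and in WT its log2FC was −0.31 (FDR 0.0998). Cyp3a13 was called lower in both genotypes, 2.02-fold in WT (means 48.6 and 24.1 FPKM, log2FC −0.98, FDR 9.41e-06) and 2.14-fold in TSP-1 null (means 59.5 and 27.8, log2FC −1.10, FDR 2.67e-06).

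Cyp3a57 stayed below the filter and was not tested. It had 0 to 2 fragments in the NDWT libraries and 11 to 27 in HFWT, that is 87 fragments in HFWT against 5 in NDWT in all, a ratio per assigned fragment of 17.5 (95% exact counting interval 7.22 to 55.3). HFKO held 61 fragments against 3 in NDKO, a ratio of 21.1 (6.90 to 105). These intervals cover counting error only. Cyp3a16 and Cyp3a44 reached at most 0.1 and 0.516 FPKM.

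The CYP2A genes of chromosome 7 rose together, apart from Cyp2a12: 3 of 4 were called higher and none lower in each genotype. Cyp2a5 (chr7:26835305-26843548, plus strand), the coumarin and nicotine hydroxylase, was 30.7, 40.2, 32.7, 42.0 and 53.0 FPKM in NDWT and 287, 191, 168, 293 and 248 in HFWT. It was 74.3, 46.8, 51.3, 40.7 and 78.5 in NDKO and 173, 214, 137, 315 and 158 in HFKO. The lowest CDAHFD library lay above the highest control diet library. Cyp2a5 rose 5.97-fold in WT (log2FC 2.57, SE 0.23, relative 2.04, FDR 7.64e-09) and 3.42-fold in TSP-1 null (log2FC 1.76, relative 1.26, FDR 1.36e-06).

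Cyp2a4 (chr7:26307190-26315088, plus strand), a female-biased steroid 15α-hydroxylase, was nearly absent on control diet, at 0.1, 0.0350, 0.0980, 0 and 0.0580 FPKM in NDWT and 0.113, 0.0770, 0.0310, 0.182 and 0.259 in NDKO. On CDAHFD it was 2.21, 7.05, 4.05, 9.14 and 10.1 in HFWT and 15.4, 4.88, 7.61, 49.8 and 10.1 in HFKO. Its control diet values rest on 0 to 4 fragments per library in NDWT and 1 to 9 in NDKO, so the size of the fold is uncertain. Cyp2a4 rose 112-fold in WT (log2FC 5.24, SE 0.50, relative 4.71, FDR 1.70e-08) and 133-fold in TSP-1 null (log2FC 5.84, relative 5.34, FDR 4.68e-09), or 71.9-fold without HFKO library 4.

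Cyp2a4 and Cyp2a5 share sequence in their transcripts as well as upstream of them. Of the 31-base stretches of Cyp2a4, 58.9% also occur in transcripts of another gene, mainly Cyp2a5, and 54.6% of those of Cyp2a5. Cyp2a4 FPKM was a median of 0.109% of that of Cyp2a5 in NDWT and 0.165% in NDKO, and of 3.12% in HFWT and 6.43% in HFKO (highest library 15.8%), so its part did not stay at 1 ratio to Cyp2a5. How the counting treated fragments that fit both genes is not given in the sources used here.

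Cyp2a22 (chr7:26931631-26939386, minus strand) was 2.22, 1.18, 2.67, 1.47 and 2.23 FPKM in NDWT and 2.83, 8.13, 5.32, 5.81 and 9.56 in HFWT. It was 0.784, 1.36, 1.34, 1.32 and 1.02 in NDKO and 7.87, 6.98, 8.62, 21.4 and 6.15 in HFKO. HFWT library 1 came close to the highest NDWT library, without overlap. Cyp2a22 rose 3.24-fold in WT (log2FC 1.59, SE 0.33, relative 1.06, FDR 0.000224) and 8.74-fold in TSP-1 null (log2FC 2.89, relative 2.39, FDR 2.10e-07), and the difference between these 2 changes did not pass the test (FDR 0.183). Of its 31-base stretches 34.6% are shared, mainly with Cyp2a12.

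Cyp2a12 (chr7:27029090-27036807, plus strand), a hydroxylase of steroids and bile acids, was 331, 343, 353, 308 and 331 FPKM in NDWT and 224, 239, 263, 228 and 220 in HFWT. It was 293, 260, 308, 268 and 301 in NDKO and 300, 307, 270, 313 and 244 in HFKO. WT groups did not overlap by diet, and TSP-1 null groups did. The log2FC was −0.51 in WT (SE 0.07, FDR 5.22e-06, under the fold threshold and so not called) and −0.00 in TSP-1 null (FDR 1.00).

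In the CYP2B subfamily Cyp2b9 (chr7:26173411-26210661, plus strand), female-biased and responsive to CAR, was the one member with more than a trace. It was 0.321, 0.0320, 0.329, 0.0310 and 0.214 FPKM in NDWT and 0.862, 16.7, 4.26, 5.91 and 13.1 in HFWT. It was 0.155, 0.141, 0.143, 0.233 and 0.132 in NDKO and 20.5, 11.2, 10.3, 23.0 and 6.91 in HFKO. The CDAHFD libraries were all above those on control diet and spread widely in HFWT, and those on control diet rest on 1 to 14 fragments in NDWT and 5 to 7 in NDKO. Cyp2b9 rose 44.1-fold in WT (log2FC 4.49, SE 0.58, relative 3.96, FDR 1.03e-06) and 89.4-fold in TSP-1 null (log2FC 5.67, relative 5.17, FDR 5.39e-08).

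Cyp2b13, whose upstream stretch differs from that of Cyp2b9 at 2 of 250 bases, was not tested. It had 0 fragments in all NDWT libraries, 1 in NDKO, 15 in HFWT and 20 in HFKO. Of the 31-base stretches of Cyp2b9, 26.1% are shared, mainly with Cyp2b13. Cyp2b10, the classical CAR target, had at most 1 fragment in any library.

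The CYP2C cluster of chromosome 19 split. Of 13 tested members 3 were called higher and 5 lower in WT, and 3 higher and 6 lower in TSP-1 null. Cyp2c29 (chr19:39269405-39330713, plus strand), an arachidonic acid epoxygenase responsive to CAR, was 94.1, 128, 83.5, 118 and 108 FPKM in NDWT and 9.65, 29.6, 7.20, 10.04 and 11.6 in HFWT. It was 62.6, 74.9, 94.1, 74.1 and 133 in NDKO and 28.2, 9.15, 20.7, 31.3 and 10.9 in HFKO. There was no overlap by diet. Cyp2c29 fell 7.82-fold in WT (log2FC −3.13, SE 0.35, relative −3.66, FDR 1.65e-07) and 4.38-fold in TSP-1 null (log2FC −2.24, relative −2.74, FDR 1.26e-05).

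Cyp2c54 (chr19:40037941-40073811, minus strand), also an epoxygenase, was 70.9, 102, 90.3, 107 and 115 FPKM in NDWT and 41.3, 47.0, 29.2, 26.2 and 41.0 in HFWT. It was 114, 91.3, 98.3, 144 and 122 in NDKO and 33.5, 27.8, 18.1, 29.8 and 19.8 in HFKO. All CDAHFD libraries were below the control diet libraries. Cyp2c54 fell 2.63-fold in WT (log2FC −1.41, SE 0.19, relative −1.94, FDR 1.89e-06) and 4.42-fold in TSP-1 null (log2FC −2.16, relative −2.66, FDR 7.38e-09). Of its 31-base stretches 42.3% are shared with other genes.

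Cyp2c40 (chr19:39767071-39812814, minus strand), a female-biased member, was low throughout, at 0.485, 0.971, 2.95, 1.40 and 0.443 FPKM in NDWT and 0.0270, 0.234, 0.242, 0.0250 and 0.0280 in HFWT. It was 1.28, 0.648, 0.788, 3.59 and 1.29 in NDKO and 0.2, 0.282, 0.0550, 0.397 and 0 in HFKO. The groups did not overlap by diet, and the CDAHFD values rest on 1 to 10 fragments in HFWT and 0 to 16 in HFKO. Cyp2c40 fell 11.2-fold in WT (log2FC −2.54, SE 0.54, relative −3.07, FDR 0.000328), or 7.42-fold without NDWT library 3. In TSP-1 null the fall was 8.14-fold (log2FC −2.48, relative −2.97, FDR 0.000440), or 5.36-fold without NDKO library 4.

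Cyp2c69 (chr19:39842660-39886769, minus strand) shares 64.9% of its 31-base stretches, mainly with Cyp2c40, which shares 72.6% of its own, so the 2 are uncertain as separate genes. Cyp2c69 was 0.121, 0.508, 1.05, 0.494 and 0.255 FPKM in NDWT, and 0 in 4 HFWT libraries and 0.0980 in library 5. It was 0.575, 0.671, 0.544, 3.64 and 0.363 in NDKO and 0.0260, 0.0360, 0.0310, 0 and 0 in HFKO. Its fragments numbered 77 in NDWT against 3 in HFWT, a ratio of 25.5 (95% exact counting interval 8.41 to 126), and 182 in NDKO against 3 in HFKO, a ratio of 58.4 (19.7 to 286). NDKO library 4 held 103 of those 182 fragments, and the ratio of mean FPKM, 62.3 in TSP-1 null, was 28.9 without it. Cyp2c69 was called lower in both genotypes (FDR 0.000596 and 2.37e-05). NDKO library 4 was the highest NDKO library for both genes.

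Cyp2c55 (chr19:39007019-39042693, plus strand) ran the other way. It was 0.237, 0.240, 0.0840, 0.117 and 0.126 FPKM in NDWT and 1.93, 1.49, 1.19, 1.08 and 1.33 in HFWT. It was 0.121, 0.110, 0.0270, 0.157 and 0.347 in NDKO and 0.863, 0.897, 0.725, 1.70 and 0.71 in HFKO. The CDAHFD libraries lay above all control diet libraries, which held 3 to 11 fragments in NDWT and 1 to 14 in NDKO. Cyp2c55 rose 8.73-fold in WT (log2FC 2.55, SE 0.30, relative 2.01, FDR 2.63e-07) and 6.42-fold in TSP-1 null (log2FC 2.15, relative 1.65, FDR 2.61e-06).

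The other CYP2C members moved less. Cyp2c70, which makes the muricholic acids typical of mouse bile, had means of 36.0 FPKM in NDWT and 66.7 in HFWT (log2FC 0.96, FDR 0.0138) and 40.4 in NDKO and 62.0 in HFKO (log2FC 0.78, FDR 0.0410). The TSP-1 null call of Cyp2c70 was lost without any 1 of NDKO libraries 1 to 4 or HFKO libraries 1, 2 and 4 (FDR 0.0538 to 0.124). Cyp2c39, a retinoic acid hydroxylase, was called higher in both genotypes as deposited, but its log2FC was −0.27 (WT) and −0.10 (TSP-1 null) under quantile normalization. Its calls were lost without any 1 of NDWT libraries 2 and 5 and HFWT libraries 2 and 5 in WT (FDR 0.0573 to 0.0966), and of NDKO libraries 2 and 5 and HFKO libraries 1 and 4 in TSP-1 null (FDR 0.0531 to 0.101).

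The epoxygenase Cyp2c37 was called lower in both genotypes, with means of 82.2 FPKM in NDWT and 52.1 in HFWT (log2FC −0.73, FDR 0.0328) and 108 in NDKO and 50.7 in HFKO (log2FC −1.21, FDR 0.00113). Its WT call was lost without any 1 of NDWT libraries 4 and 5 and HFWT libraries 1, 3 and 4 (FDR 0.0599 to 0.0995). Cyp2c50, from the same group, was called in TSP-1 null (means 165 and 84.3 FPKM, log2FC −0.97, FDR 8.28e-06) and was −0.40 in WT (FDR 0.0196). Cyp2c38, Cyp2c44, Cyp2c67 and Cyp2c68 were called in neither genotype as deposited, whereas under median of ratios scaling Cyp2c44 (−0.80 for WT, −0.59 for TSP-1 null) and Cyp2c67 (−1.14 and −1.02) were called lower. For Cyp2c67 in WT (log2FC −0.57) this rests on the fold threshold, and leaving out any 1 of NDWT libraries 1, 4 and 5 or HFWT libraries 1 to 3 brought a call (−0.63 to −0.58). Cyp2c38 was called in WT without HFKO library 4 (FDR 0.0317) and in TSP-1 null without any 1 of NDWT library 2, NDKO libraries 2 and 4 and HFKO libraries 2 and 5 (FDR 0.0134 to 0.0493), and Cyp2c68 in TSP-1 null without NDKO library 4 or HFKO library 5 (log2FC 0.58 and 0.62).

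The CYP1 genes were higher on CDAHFD as deposited. Cyp1a1 (chr9:57697613-57703822, plus strand), the AhR target that oxidises polycyclic aromatic hydrocarbons, was 0.115, 0.0920, 0.0430, 0.134 and 0.153 FPKM in NDWT and 1.06, 0.507, 0.546, 0.498 and 0.552 in HFWT. It was 0.314, 0.319, 0.184, 0.239 and 0.472 in NDKO and 0.536, 0.415, 0.679, 0.560 and 0.701 in HFKO. WT groups did not overlap, while NDKO library 5 lay above HFKO library 2. These levels rest on 2 to 8 fragments per library in NDWT, 9 to 25 in NDKO, 25 to 50 in HFWT and 17 to 35 in HFKO. Cyp1a1 was 5.90-fold higher in WT (log2FC 1.80, SE 0.24, relative 1.27, FDR 1.44e-06) and 1.89-fold higher in TSP-1 null (log2FC 0.76, relative 0.27, FDR 0.00745), and the TSP-1 null value was −0.43 under quantile normalization.

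Cyp1a2, the caffeine-oxidising neighbour of Cyp1a1, ranged from 106 to 192 FPKM in NDWT and from 165 to 431 in HFWT (1.98-fold, log2FC 0.95, FDR 0.00194). It ranged from 77.0 to 193 in NDKO and from 143 to 265 in HFKO (1.59-fold, log2FC 0.71, FDR 0.0150), and the TSP-1 null call was lost without NDKO library 4 (log2FC 0.56, FDR 0.0516).

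Cyp1b1 (chr17:79706953-79715041, minus strand), an oestradiol hydroxylase found mostly outside hepatocytes, was 0.260, 0.129, 0.219, 0.0910 and 0.264 FPKM in NDWT and 2.07, 2.03, 2.52, 0.851 and 2.03 in HFWT. It was 0.227, 0.189, 0.167, 0.207 and 0.174 in NDKO and 1.72, 2.11, 2.06, 1.86 and 2.17 in HFKO. No CDAHFD library reached down to the control diet range. Cyp1b1 rose 9.86-fold in WT (log2FC 2.74, SE 0.23, relative 2.21, FDR 3.13e-09) and 10.3-fold in TSP-1 null (log2FC 2.83, relative 2.33, FDR 2.44e-09), and none of its 31-base stretches is shared with another gene.

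**Figure D4:**
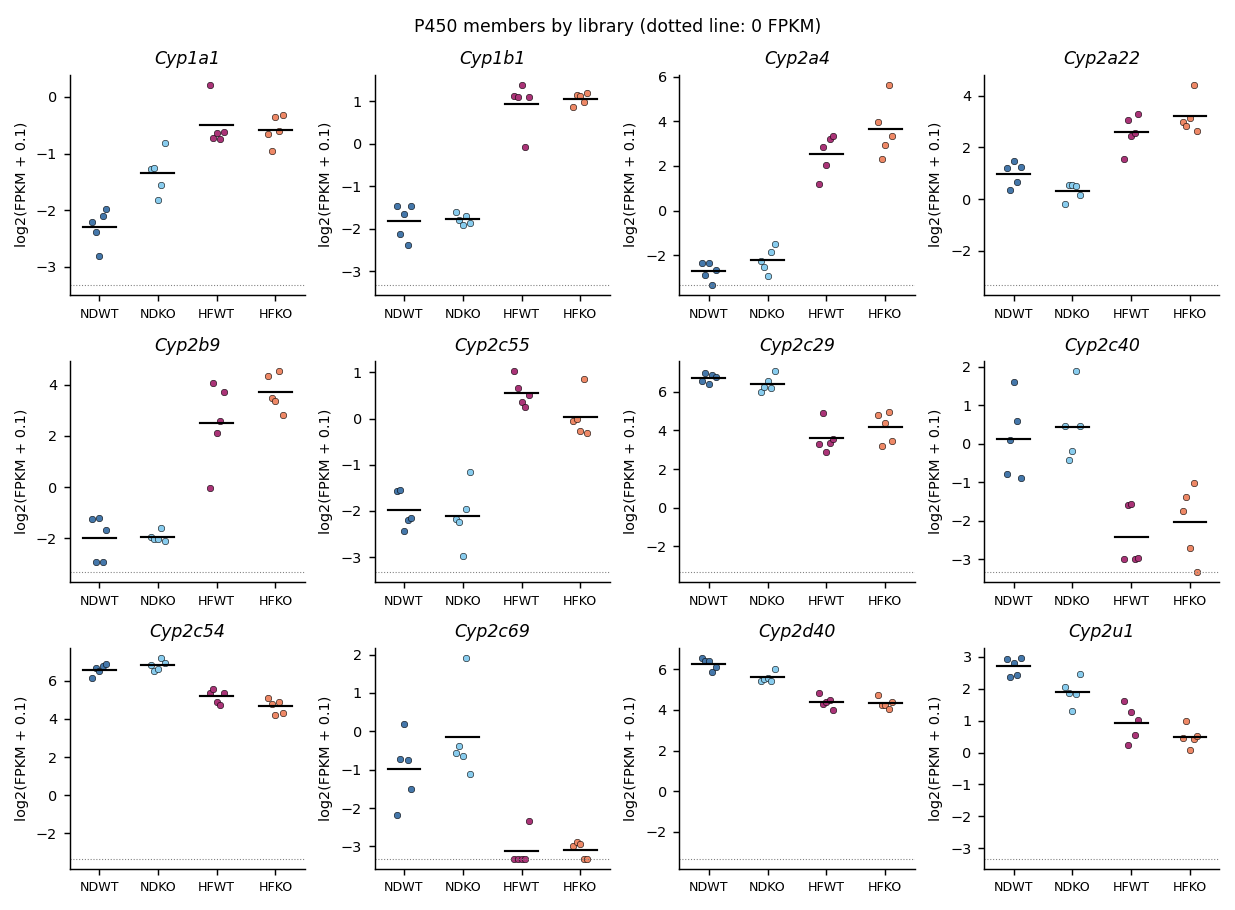
Values on the scale log2(FPKM + 0.1) (vertical axes) of 12 members in each library, with 1 point per library, the mean of these log values as a bar and a dotted line at 0 FPKM. In all 12 panels but that of Cyp1a1, where NDKO and HFKO meet, the CDAHFD points lie wholly above or wholly below the control diet points of the same genotype.

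Cyp2u1 (chr3:131290491-131303227, minus strand), a fatty acid hydroxylase, was 7.52, 5.09, 6.92, 5.22 and 7.61 FPKM in NDWT and 2.97, 1.07, 2.29, 1.38 and 1.94 in HFWT. It was 4.05, 3.57, 2.39, 3.46 and 5.39 in NDKO and 1.26, 1.89, 0.954, 1.24 and 1.33 in HFKO. Diet groups did not overlap. Cyp2u1 fell 3.36-fold in WT (log2FC −1.76, SE 0.24, relative −2.29, FDR 2.10e-06) and 2.83-fold in TSP-1 null (log2FC −1.42, relative −1.91, FDR 3.03e-05).

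Of the CYP2J genes of chromosome 4, Cyp2j5, an epoxygenase of liver and kidney, ranged from 203 to 243 FPKM in NDWT and from 83.9 to 96.5 in HFWT, and fell 2.44-fold (log2FC −1.29, FDR 6.60e-12). In TSP-1 null it ranged from 157 to 183 and from 83.1 to 101 and fell 1.91-fold (log2FC −0.94, FDR 5.35e-10). Cyp2j6 and Cyp2j9 were tested and called in neither genotype as deposited, and Cyp2j6 was called lower in both under median of ratios scaling (−0.67 and −0.68). Cyp2r1, a vitamin D 25-hydroxylase, had means of 2.67 FPKM in NDWT and 4.07 in HFWT (log2FC 0.60, FDR 0.0161) and of 2.26 in NDKO and 3.597 in HFKO (log2FC 0.70, FDR 0.00680), but was −0.13 and −0.025 under quantile normalization. Its calls were lost without any 1 of NDWT libraries 1 and 4 and HFWT libraries 1 and 3 in WT (log2FC 0.49 to 0.57), and without NDKO library 1 in TSP-1 null (0.56).

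Of the members below the filter, Cyp2g1, Cyp2s1, Cyp3a44 and Cyp3a57 exceeded 0.5 FPKM in 1 or 2 libraries, all of them on CDAHFD. Mean Cyp2s1 FPKM was 0.0942 (NDWT), 0.132 (NDKO), 0.417 (HFWT) and 0.285 (HFKO). Mean Cyp2g1 FPKM was 0.0824, 0.205, 0.458 and 0.319 in the same order. Cyp2t4, Cyp2j8 and Cyp2d34 reached at most 0.396, 0.169 and 0.155 FPKM.

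Between genotypes few members differed. On control diet 4 of 39 were called, 2 higher and 2 lower in NDKO, against 4.77% of all tested genes called (1.74% higher, 3.03% lower). At an unadjusted p under 0.05 the count was 12, against 27.3% of all genes, 7 had an FDR under 0.05 (13.1% of all genes), and the groups did not overlap for 6 members (15.4%, all genes 9.03%). The median log2FC was 0.04 over the members and −0.07 over all genes. Under median of ratios scaling 3 were higher (Cyp1a1, Cyp3a25 and Cyp3a59) and 1 lower (Cyp2d40), and under quantile normalization Cyp1a1 and Cyp3a25 were higher and none was lower. Cyp1a1 was the 1 call of 4 that held under both scalings.

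Cyp1a1, whose upstream stretch is printed above, was 2.85-fold higher in NDKO than in NDWT, with no overlap of the values given above (log2FC 0.95, 95% interval 0.46 to 1.45, FDR 0.0120). Its levels of 2 to 25 fragments per library leave the size uncertain, and with a pseudocount of 1 the log2FC was 0.23 (FDR 0.0920). In the same comparison Cyp1a2 (log2FC −0.20) and Cyp1b1 (0.04) were not called. Cyp3a59 (chr5:146079258-146113285, plus strand) was 9.13, 4.56, 8.60, 7.38 and 6.92 FPKM in NDWT and 15.1, 10.3, 8.56, 16.7 and 15.7 in NDKO. It was 6.03, 8.76, 8.61, 7.62 and 13.6 in HFWT and 11.3, 10.4, 10.01, 16.0 and 7.48 in HFKO. NDKO library 3 lay within the NDWT range and the other NDKO libraries above it.

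Cyp3a59 was 1.81-fold higher in NDKO (log2FC 0.84, 95% interval 0.34 to 1.34, FDR 0.0246), and the call was lost without any 1 of NDWT libraries 2 and 5 and NDKO libraries 1, 4 and 5 (log2FC 0.68 to 0.83, FDR 0.0502 to 0.0656). Cyp3a59 shares 49.9% of its 31-base stretches, mainly with Cyp3a25, which was higher in NDKO in all libraries without passing the fold threshold (log2FC 0.57, FDR 0.0301). Cyp3a25 was called without any 1 of NDWT libraries 1, 3, 4 and 5 and NDKO libraries 2 and 3 (log2FC 0.58 to 0.66).

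Cyp2d40 was 1.59-fold lower in NDKO (log2FC −0.66, SE 0.16, FDR 0.00902), where NDKO library 5 lay within the NDWT range and the other 4 libraries below it. Cyp2u1 was 1.72-fold lower (log2FC −0.79, SE 0.24, FDR 0.0356), again with NDKO library 5 inside the NDWT range, and its call was lost without any 1 of NDWT libraries 1, 3 and 5 and NDKO libraries 1 to 4 (log2FC −0.83 to −0.64, FDR 0.0565 to 0.0975). The comparisons of genotype on control diet and of diet share the control diet libraries.

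On CDAHFD 0 of 39 members were called by limma, against 0.496% of all tested genes, and 0 had an FDR under 0.05 (1.12% of all genes). At an unadjusted p under 0.05 the count was 10 (17.2% of all genes), and groups did not overlap for 1 member, Cyp2d12 (2.56%, all genes 4.98%). Cyp2d12 was lower in HFKO than in HFWT by 1.43 in log2FC (95% interval of the log2FC −2.17 to −0.69, FDR 0.0552), and was called without HFWT library 5 (log2FC −1.67, FDR 0.0328). Without HFWT library 4, Cyp2f2 (0.59, FDR 0.0234) and Cyp2c50 (−0.63, FDR 0.0474) were called.

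For the interaction of diet and genotype 0 of 39 members were called by limma, against 0.647% of all genes (0.310% lower), and 14 had an unadjusted p under 0.05 (15.1% of all genes). Cyp2a12 (0.51, 95% interval 0.29 to 0.73, FDR 0.0297) and Cyp2d22 (−0.39, 95% interval −0.58 to −0.21, FDR 0.0389) had an FDR under 0.05, as had 0.854% of all genes, but were not past the fold threshold. For Cyp2a12 this is the gap between a WT value of −0.51 and a TSP-1 null value of −0.00. Mean Cyp2d22 was 82.8 FPKM in NDWT and 104 in NDKO on control diet, and 80.9 in HFWT and 77.3 in HFKO on CDAHFD.

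**Figure D5:**
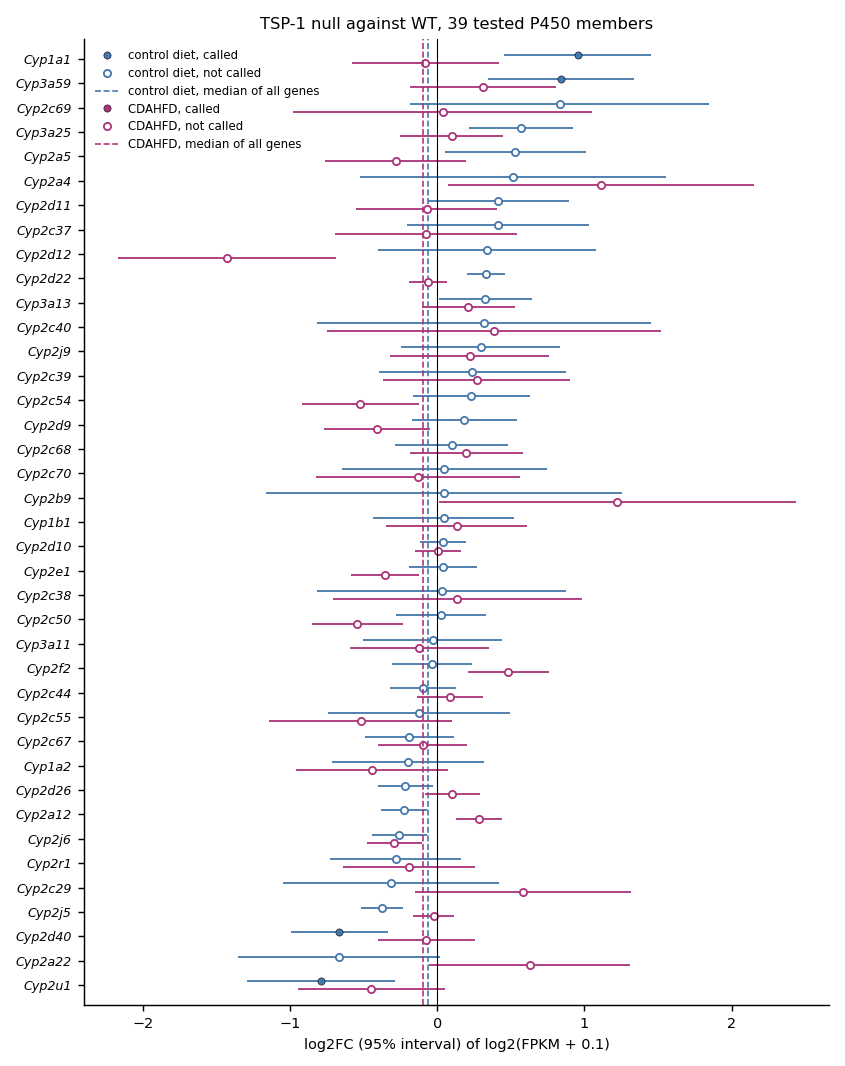
Fitted log2FC with its 95% interval (horizontal axis) of TSP-1 null against WT for the 39 tested members, on control diet (blue) and CDAHFD (purple), with filled points for called members and dashed lines at the median of all genes. Only Cyp1a1, Cyp3a59, Cyp2d40 and Cyp2u1 on control diet are filled.

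Among partners of the P450s, the gene lists were chosen with earlier results of these data known and are described by counts, given as higher and lower on CDAHFD as deposited, with the split under median of ratios scaling and then quantile normalization (WT, then TSP-1 null) where it moved. Of 6 redox partners tested, 2 were higher and 1 lower on CDAHFD in WT, and 1 was higher and 1 lower in TSP-1 null (median of ratios 0 and 1, 0 and 1, quantile 1 and 1, 1 and 1). Por, the P450 oxidoreductase that feeds every member with electrons, averaged 128 FPKM in NDWT and 225 in NDKO on control diet, and 82.6 in HFWT and 111 in HFKO on CDAHFD. Por fell on CDAHFD in both genotypes (log2FC −0.65, FDR 0.00855, and −1.003, FDR 0.000249) and was higher in NDKO than in NDWT (0.81, FDR 0.0142), calls that held under both scalings.

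Of 12 genes of haem synthesis and breakdown, 5 were higher in WT and 4 in TSP-1 null and none was lower, a split that became 2 higher and 1 lower, and 2 and 2, under median of ratios scaling and 3 and 0 in both under quantile normalization. Hmox1, the inducible haem oxygenase, had means of 15.8, 14.5, 52.0 and 49.1 FPKM in NDWT, NDKO, HFWT and HFKO (log2FC 1.71 and 1.70). Blvra, a biliverdin reductase, rose as well (1.28 and 1.29).

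Of 18 regulators, 2 were higher and 1 lower in WT, and 3 higher and 1 lower in TSP-1 null. The split turned towards lower under the scalings, with 1 higher and 9 lower, and 0 and 9, under median of ratios scaling, and 1 and 3, and 2 and 5, under quantile normalization. Ahr averaged 5.05 FPKM in NDWT and 8.35 in NDKO on control diet, and 13.2 in HFWT and 13.4 in HFKO on CDAHFD. It was called higher on CDAHFD (log2FC 1.39 for WT, 0.709 for TSP-1 null) and in NDKO against NDWT (0.709, FDR 0.00602). The TSP-1 null diet call of Ahr was lost under both scalings. Of the other regulators, Foxa3 (0.70) was called higher and Nfe2l2 (−0.69) lower in NDKO than in NDWT, calls that held under both scalings. Over all genes 1.74% were called higher and 3.03% lower in that comparison. Ppara, the fatty acid sensing receptor, fell in both genotypes (−1.22 and −0.65). Nr1i2 and Nr1i3, which encode PXR and CAR and are named here after their values were seen, were not called as deposited (−0.13 and −0.40 for Nr1i2, −0.28 and −0.50 for Nr1i3). Their values under the scalings are not given here.

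Both tested AhR targets outside the families were higher in each genotype as deposited. Nqo1 rose from 1.51 to 13.5 FPKM in WT and from 1.84 to 9.80 in TSP-1 null (log2FC 3.10 and 2.44). Tiparp was 0.87 and 1.23 as deposited. Its WT call was lost under median of ratios scaling (0.35) and quantile normalization (−0.06), and its TSP-1 null call under quantile normalization (0.34). On control diet neither target was called higher in NDKO than in NDWT. Tiparp was called lower there (−0.63), a call lost under both scalings (−0.576 and −0.542). Whether AhR activity differed by genotype was not tested. Of 9 genes of growth hormone signalling and sex bias, 1 was higher and 1 lower in WT and 1 higher and 2 lower in TSP-1 null (median of ratios 0 and 2, 0 and 4, quantile 0 and 4, 0 and 5). Ghr, the growth hormone receptor, fell (−0.95 and −0.74). Cux2, of the same list, was called lower on CDAHFD in TSP-1 null alone (−1.09) and higher in NDKO than in NDWT (2.49). Both Cux2 calls held under both scalings. Of the female-biased members listed, 4 of 9 were tested, of which Cyp2a4 and Cyp2b9 rose and Cyp2c40 and Cyp2c69 fell in both genotypes.

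P450 families outside 1 to 3 also moved. Of 14 tested genes of family 4, the fatty acid ω-hydroxylases, 2 were higher and 9 lower in WT and 2 higher and 7 lower in TSP-1 null. Cyp4f18 rose (log2FC 3.15 and 2.83) and Cyp4a12b fell (−2.17 and −2.74). Cyp4a12b was also lower in TSP-1 null on both diets (−0.68, FDR 0.0132, and −1.25, FDR 0.000473). Its control diet call was lost under quantile normalization (−0.57). Cyp4a12a was lower in TSP-1 null on both diets too (−1.13 and −1.75), whereas Cyp4a32 was higher on control diet (0.87). Of all genes, 1.74% were higher and 3.03% lower on control diet, and 0.165% and 0.330% on CDAHFD. Of 9 sterol and retinoid P450s, 4 were higher and 4 lower in WT and 3 higher and 4 lower in TSP-1 null (WT under median of ratios 3 and 5). Cyp7b1 (−2.76 and −3.13) and Cyp8b1 (−2.28 and −2.09), both of bile acid synthesis, fell, and Cyp26a1, which clears retinoic acid (3.61 and 4.30), and Cyp51, of cholesterol synthesis (2.03 and 2.06), rose. Cyp39a1 rose as well (1.69 and 1.65), and Cyp7a1 was called higher in WT alone (1.60), a call lost under 1 scaling. On control diet Cyp7a1 (2.09), Cyp39a1 (0.67) and Cyp8b1 (0.67) were called higher in NDKO than in NDWT, against 1.74% of all genes. The control diet call of Cyp8b1 was lost under 1 scaling. On CDAHFD Cyp8b1 alone was higher in HFKO than in HFWT (0.85, all genes 0.165%), and none of the list was lower in either.

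Of 8 P450s known to be transcribed around the central vein, 3 were called higher and 3 lower in WT and 3 higher and 5 lower in TSP-1 null (median of ratios 2 and 5 in both, quantile 3 and 3, 3 and 4). Of 8 pericentral markers outside the families, 6 were higher and 1 lower in WT and 4 higher and 2 lower in TSP-1 null (median of ratios 2 and 2, 2 and 3, quantile 3 and 1, 3 and 3). Between genotypes 1 of them was lower in NDKO than in NDWT (3.03% of all genes), and none was higher on either diet. On CDAHFD 4 were lower in HFKO than in HFWT, against 0.330% of all genes. The call of Glul among them was lost under median of ratios scaling (−0.56). Oat, one of these 4, was the only list gene called in the interaction (log2FC −1.10, FDR 0.0257). Of 5 periportal markers, 1 was higher and 2 lower in WT and 1 higher and 3 lower in TSP-1 null (WT under median of ratios 1 and 4). Between genotypes 3 of them, Sds, Hal and Gls2, were higher in NDKO than in NDWT (1.74% of all genes). Gls2 was also higher in HFKO than in HFWT (0.165% of all genes), and these calls held under both scalings.

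Markers of other liver cells moved with the diet. In bulk tissue, fewer cells of a type and less RNA per cell cannot be told apart. All 9 stellate cell markers were called higher in both genotypes, with a summed level of 22.3 to 29.3 FPKM in the control diet groups and 129 to 277 on CDAHFD, and 6 or 7 of them under the scalings. All 5 tested cholangiocyte markers were higher, with 12.4 to 18.0 FPKM on control diet and 182 to 488 on CDAHFD. Of 7 tested macrophage markers, 3 were higher and 2 lower in WT and 4 higher and 2 lower in TSP-1 null (169 to 298 and 602 to 1323 FPKM). The TSP-1 null call of Cd5l was lost under median of ratios scaling (0.16). All 3 tested neutrophil markers were higher (1.65 to 5.03 and 14.5 to 36.7). Of the T cell markers 5 of 6 were higher in both genotypes, a result that was lost in TSP-1 null under quantile normalization (0 higher, 1 lower), and all 4 B cell markers were higher as deposited (0.814 to 5.04 and 5.25 to 10.2), but 3 or 1 in WT and 0 in TSP-1 null under the scalings. Endothelial markers numbered 1 of 6 higher in WT and 2 in TSP-1 null (44.9 to 59.4 and 49.3 to 82.7 FPKM). In WT 0 were higher and 2 lower under either scaling, and the TSP-1 null call of Pecam1 was lost under both. Of 5 tested erythroid markers 1 was lower in WT and 2 in TSP-1 null (126 to 339 and 104 to 221).

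Of 9 tested hepatocyte markers none was higher and 3 were lower in WT and 2 in TSP-1 null (9 and 6 under median of ratios scaling, 1 and 1 under quantile normalization). Their sum was 36441 to 44340 FPKM in NDWT, 41050 to 48845 in NDKO, 27469 to 39570 in HFWT and 36011 to 47412 in HFKO, so it overlapped between diets. On control diet Hpd and Cps1 of this list were called higher in NDKO than in NDWT, against 1.74% of all genes. The call of Hpd was lost under quantile normalization (0.51). The part of these markers in the members' results was not tested.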

How the data were processed

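FPKM values of 38924 genes in 20 libraries were used as deposited by the authors, who sequenced poly(A) RNA from strand-marking libraries and made the table with QuickRNASeq. The submitters' processing notes name STAR 2.5.2, Subread 1.5.1 with featureCounts, and the human build GRCh38, whereas the coordinates are those of mouse GRCm38, where 57 of 57 members overlap their GENCODE M21 gene. The strand setting of the counting is not given in the sources used here. FPKM times gene length in kb sums to the same total in every library, and fragments per gene were recovered as whole numbers (100% of checked values).

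Groups followed the sample labels. limma 3.58.1 in R 4.3.3 was fitted to log2(FPKM + 0.1) over all libraries, for genes with FPKM above 0.5 in at least 5, with eBayes trend, and p-values adjusted by Benjamini-Hochberg over all 14524 genes of a comparison. Fold values are ratios of mean FPKM, and a log2FC on this scale understates the change of low genes. The interaction is the diet effect in TSP-1 null less that in WT. The spread is that between these mice. Floors and counting intervals cover counting error only. Libraries within a group differed beyond sampling noise (chi-square per degree of freedom at least 12.1 over 40 pairs).

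Members and gene lists were chosen with earlier results of these data known. Values in every library are given for the 8 members of highest mean FPKM, for the 5 that rose and the 5 that fell most per comparison among called members without overlap between groups, and for those called between genotypes, 22 in all. List genes are named up to 5 per list, by FDR, with Cyp7a1 in addition. Further list genes are named where a call between genotypes or a lost call is given. Alternatives were pseudocounts of 0.01 and 1, other filters, quantile normalization and median of ratios scaling, calls without a fold threshold, other eBayes settings, only the groups compared, leaving out each mouse, and a block for the replicate number. The fit was tested on simulated data. Tables and sequences used Python 3.11.15, pandas 2.3.3, numpy 2.4.6 and Biopython 1.88, and figures matplotlib 3.10.9.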

Additional observations from a re-analysis of the deposited data

Results flagged for a closer look

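Of 88 sets of 5 libraries (22 members in 4 groups), 9 held a library far from the other 4 by Dixon's ratio, where chance gives about 1 in 20. On CDAHFD, Cyp1a1 was 1.06 FPKM in HFWT library 1 against 0.498 to 0.552 in the others, and Cyp1b1 was 0.851 in HFWT library 4 against 2.03 to 2.52. In HFKO library 4 Cyp2a22 was 21.4 FPKM (others 6.15 to 8.62) and Cyp2c55 was 1.70 (0.71 to 0.897). Cyp2c69 was 0.0980 in HFWT library 5, which is the library with the high share on Gm26924 and Gm23935, and 0 in the other 4. On control diet, NDKO library 4 was highest for Cyp2b9 (0.233 FPKM, others 0.132 to 0.155) and Cyp2c69 (3.64, others 0.363 to 0.671), NDKO library 5 for Cyp2d40 (63.7, others 43.1 to 46.9), and NDWT library 2 was lowest for Cyp3a25 (124, others 198 to 206).

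For 2 members the diet effect differed between genotypes at an FDR under 0.05 by the interaction test, both below the fold threshold. Cyp2a12 had an interaction of 0.51, from a log2FC of −0.51 on CDAHFD in WT and one of −0.00 in TSP-1 null. Cyp2d22 had an interaction of −0.39, from a log2FC of −0.04 (WT) and −0.43 (TSP-1 null).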

How the results depend on the processing

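Under the alternatives other than leaving out a mouse, the members called on CDAHFD numbered 20 to 31 in WT and 24 to 31 in TSP-1 null, all within 1.5 times the reported 24 and 28. The split between higher and lower moved with scaling, as given beside the counts, and quantile normalization turned Cyp2c39 (−0.27 in WT, −0.10 in TSP-1 null), Cyp2r1 (−0.13 and −0.025) and Cyp1a1 in TSP-1 null (−0.43). Between genotypes on control diet, 2 members were called under quantile normalization and 7 without a fold threshold in place of 4. On CDAHFD 1 member was called with a pseudocount of 1 (Cyp2d12, −0.84, FDR 0.0415) and 1 under median of ratios scaling (Cyp2f2, 0.59, FDR 0.0452) in place of 0, and the interaction had 2 without a fold threshold in place of 0. The cause was not tested, apart from the threshold itself. Leaving out each mouse in turn gave 23 to 25 calls in WT, 26 to 29 in TSP-1 null, 2 to 5 between genotypes on control diet (2 without NDKO replicate 1 or 4), 0 to 2 on CDAHFD (2 without HFWT replicate 4, 1 without HFWT replicate 5) and 0 to 0 for the interaction. Libraries with the same replicate number did not deviate together (r −0.133 to 0.0812 over 30 pairs, 0 over 0.1, against 3 of 120 pairs of other numbers). A shared step that leaves no such correlation cannot be seen this way. With a replicate block the counts were 24, 27, 4, 0 and 0 in the order of the comparisons. Depth limits Cyp1a1, Cyp2a4, Cyp2b9, Cyp2c40, Cyp2c55, Cyp2c69 and the 18 members below the filter, where control diet or CDAHFD libraries hold few fragments.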

Other observations

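Libraries of a group differed in how often they were extreme over all members. HFKO library 4 was the highest of its group for 24 of the 52 members above 0 there and the lowest for 3, and HFKO library 5 was the lowest for 19. NDKO library 5 was the highest of its group for 22 of 50 members. In NDWT no library was highest for more than 12 of 47 members, and in HFWT none for more than 14 of 52.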
